A study of Mus musculus with 6 samples.

Results

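The genes of mitosis and of the G2/M transition were followed in 6 single-cell RNA-seq libraries of cultured mouse granulocyte-macrophage progenitors that leave their progenitor state in either of 2 ways. A list of 36 such genes was taken, all 36 were columns of the table of 27998 genes, and each was summed over the cells of a library. The cells (strain C57BI/6, Lys-GFP-ER-HoxA9) carry HOXA9 fused to the hormone-binding domain of an estrogen receptor, so that the fusion holds them as dividing progenitors while estradiol is present, and a Lysozyme-GFP reporter that marks myeloid maturation. All were grown with stem cell factor. In the CAF-1 OFF arm, a clone with an IPTG-inducible shRNA against Chaf1b (a CAF-1 subunit, the complex that deposits histones on new DNA) was sampled without IPTG (0 h) and after 48 h and 96 h with 500 µM IPTG, with estradiol at 150 ng/ml throughout. In the HOXA9 OFF arm, a clone with a control sequence in place of the shRNA was sampled with estradiol at 150 ng/ml (0 h) and 48 h and 96 h after its withdrawal, without IPTG. Each arm is 1 clone and each group is 1 library, so no difference below has a replicate check and no test was made. Intervals in parentheses after a value are exact 95% limits and cover counting error only, and cells of a library are not replicates of its condition. The question of the design is how the mitotic genes stand when progenitors differentiate after loss of CAF-1 or after loss of HOXA9 activity.

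The 6 libraries held 473 to 1510 cells after filtering and 3524285 to 5589486 unique molecular identifiers (UMIs), each UMI standing for 1 captured transcript. Median UMIs per cell were 6571, 5998 and 5956 in the CAF-1 OFF arm (0, 48 and 96 h) and 8660, 3535.5 and 2043.5 in the HOXA9 OFF arm, so the cells of the last library were the shallowest. Filtering removed 66.2% of barcodes from the HOXA9 OFF 0 h library, 41.7% from the CAF-1 OFF 0 h library and 0.198% from the HOXA9 OFF 96 h library, and 34 barcode sequences occurred in more than 1 library. Chaf1b, the target of the shRNA, had 35.6, 3.22 and 6.49 counts per 1000000 UMIs (CPM) over the times of the CAF-1 OFF arm and 51.5, 15.3 and 1.13 CPM over those of the HOXA9 OFF arm. All 5 progenitor markers (Kit, Cd34, Mpo, Prtn3, Ctsg) had UMIs in all 6 libraries, with summed levels of 7043, 8546 and 11003 CPM in the CAF-1 OFF arm and 6209, 3889 and 90.8 CPM in the HOXA9 OFF arm. Summed neutrophil markers were at 24.2, 598 and 754 CPM against 5.01, 9039 and 137861 CPM, and 26.1% of all UMIs of the HOXA9 OFF 96 h library came from 10 genes. Eosinophil markers reached 19196 CPM at 48 h in the HOXA9 OFF arm, and mast cell or basophil markers 3977 CPM at 96 h in the CAF-1 OFF arm.

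As background, entry into mitosis is driven by CDK1 bound to cyclin A or cyclin B, which condenses chromosomes and builds the spindle, and exit follows when the anaphase-promoting complex, switched on by CDC20, marks cyclin B and securin for destruction. Most of the genes involved are transcribed late in the cycle, through promoter elements called the cell cycle genes homology region and the CCAAT box, which are read by the DREAM and MuvB complexes with B-MYB and FOXM1, and by NF-Y. Granulocyte precursors divide up to the promyelocyte and myelocyte stages, and later stages no longer do.

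The promoters of these genes are shown first because the shared elements are part of what defines the program. RefSeq promoter windows of 300 bases (250 before the transcription start and 50 after it, build GRCm38.p6) were matched for 31 of the 36 genes, with 33 windows, since Prc1 and Bub3 have 2 each. Smc4, Ccna2, Aurkb, Tpx2 and Stmn1 had no entry in the table. For the homology region the hexamer TTTGAA was searched and, as its known variant, TTCGAA, and for the CCAAT box the letters CCAAT, each on both strands. Hexamer and CCAAT cannot overlap by more than an end letter. One of the hexamers lay in 78.8% of the members' windows (26 of 33) and in 19.2% of all 32851 windows. CCAAT lay in 84.8% (28 of 33) and in 37.4% of all. In the 250 bases before the start alone, the shares were 45.5% against 17.1% for the hexamers and 84.8% against 33.8% for CCAAT, so in part of the members' windows the hexamer lay only after the annotated start. A match describes letters in a window and is not a site. The 120 bases before the start are printed for 8 genes, in lower case with the hexamers and CCAAT in capitals, in the letters of whichever strand holds them. The first 5 are Cdk1, Ube2c, Cdc20, Ccnb1 and Cks1b, of which under 1% of the 0 h level was left at 96 h in the HOXA9 OFF arm, and the last 3 are Cks2, Hmgb2 and Tubb5, of which over 10% was left. They lie at chr10:69352913-69353032 (Cdk1, minus strand), chr2:164769809-164769928 (Ube2c, plus), chr4:118437344-118437463 (Cdc20, minus), chr13:100786487-100786606 (Ccnb1, minus), chr3:89418292-89418411 (Cks1b, minus), chr13:51645112-51645231 (Cks2, plus), chr8:57511723-57511842 (Hmgb2, plus) and chr17:35838302-35838421 (Tubb5, minus).
Cdk1: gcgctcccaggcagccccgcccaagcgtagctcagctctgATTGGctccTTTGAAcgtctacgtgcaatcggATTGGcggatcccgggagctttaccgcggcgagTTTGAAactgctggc
Ube2c: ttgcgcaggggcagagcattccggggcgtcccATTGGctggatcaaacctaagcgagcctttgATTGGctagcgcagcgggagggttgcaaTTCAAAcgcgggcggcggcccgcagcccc
Cdc20: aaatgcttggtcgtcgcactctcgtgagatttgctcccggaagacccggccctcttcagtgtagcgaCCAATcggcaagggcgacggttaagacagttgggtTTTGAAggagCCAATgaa
Ccnb1: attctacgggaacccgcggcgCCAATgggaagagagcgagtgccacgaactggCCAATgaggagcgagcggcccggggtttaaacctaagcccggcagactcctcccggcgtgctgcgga
Cks1b: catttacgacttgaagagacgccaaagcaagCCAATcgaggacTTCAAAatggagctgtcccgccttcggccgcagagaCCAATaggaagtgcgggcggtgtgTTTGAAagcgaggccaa
Cks2: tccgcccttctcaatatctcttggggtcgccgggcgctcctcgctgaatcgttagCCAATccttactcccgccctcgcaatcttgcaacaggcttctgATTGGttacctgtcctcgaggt
Hmgb2: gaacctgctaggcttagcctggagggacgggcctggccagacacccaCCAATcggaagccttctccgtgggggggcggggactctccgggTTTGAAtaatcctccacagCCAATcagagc
Tubb5: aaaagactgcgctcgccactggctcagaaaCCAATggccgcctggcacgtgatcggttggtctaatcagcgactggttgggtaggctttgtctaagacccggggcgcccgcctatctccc
A hexamer began at position -15 in Cdk1 and -17 in Cks1b, counted from the start with -1 as the base before it, and at -18 in Cdc20, -29 in Ube2c and -30 in Hmgb2. Cdk1 and Cks1b held another farther upstream, at -71 and -77. The printed stretches of Ccnb1, Cks2 and Tubb5 held none, and all 8 held CCAAT on one strand or the other. Over the full windows, Ccnb1, Cks2, Birc5, Cenpe, Nusap1, Tacc3 and Tubb5 had no hexamer, and Birc5, Ndc80, Nusap1, Tacc3 and Kif20b had no CCAAT. Bub3 and Kif23, of which over 10% was also left at 96 h in the HOXA9 OFF arm, had a hexamer and are not printed. The 8 printed genes were grouped by the level left with the values known, and whether the hexamer goes with that level was not tested.

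The 2 uninduced libraries, which differ in clone and carry no treatment, show how far apart 2 libraries stand without one. Their summed levels were 7483 CPM (7401 to 7566) in CAF-1 OFF 0 h and 7374 CPM (7292 to 7457) in HOXA9 OFF 0 h, a ratio of 0.985 (0.97 to 1). No member differed by 2-fold or more in either direction, where a 2-fold difference is one of the ratio of CPM values after adding 10 CPM to each. Of the 4789 genes tested, those whose mean over the libraries was 20 CPM or more, 0.146% were that much lower and 0.752% that much higher in HOXA9 OFF 0 h. By gene, the HOXA9 OFF 0 h level was between 68.5% (Bub1, a checkpoint kinase) and 119% (Smc2, a condensin subunit) of the CAF-1 OFF 0 h level, with 24 members below and 12 above. The interval of the ratio lay clear of 1 for 13 members, so differences of this size occurred between libraries without a treatment.

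After CAF-1 depletion the mitotic genes were still present at close to their starting sum. They summed to 7868 CPM (7795 to 7942) after 48 h, then to 7086 CPM (7015 to 7158) after 96 h, which is 1.05 times (1.04 to 1.07) and 0.947 times (0.933 to 0.961) the 0 h level. The value at 96 h lay below 1 with library totals, was 1 with trimmed-mean (TMM) scaling and was 1.1 without the 5 most abundant members, so its direction was not set. No member was 2-fold lower or higher at 48 h, when 0.0418% of all genes tested were lower and 2.76% higher. At 96 h again no member was past 2-fold, against 0.856% of genes lower and 5.22% higher. Median log2 ratios over the members were 0.19 at 48 h and 0.07 at 96 h, beside 0.00 and -0.08 over all genes tested.

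After HOXA9 inactivation the same genes stood far lower. Their sum was 3664 CPM (3613 to 3716) after 48 h, 2.01 times lower than at 0 h (1.98 to 2.05), and 1051 CPM (1017 to 1085) after 96 h, 7.02 times lower (6.78 to 7.26). At 48 h all 36 members lay below 0 h (34 with TMM or median-of-ratios scaling, which put Hmgb2 and Nusap1 above) and 13 (36.1%) were at least 2-fold lower, beside 19.6% of all genes tested, and 7 with either of those scalings. None was 2-fold higher, where 13% of all genes were. At 96 h, 35 of the 36 (97.2%) were at least 2-fold lower, the exception being Hmgb2, beside 39.8% of all genes. None was 2-fold higher, where 18.1% of all genes were. The median log2 ratio of the members was -0.89 at 48 h and -2.69 at 96 h, beside -0.23 and -0.56 over all genes. Without the added 10 CPM, and with the genes at 0 UMIs set to the floor of 3 counts in the library, the members' medians were -1.17 and -5.91. The added 10 CPM draws the ratios of low genes towards 0. Neutrophil markers and the share of UMIs in the 10 top genes were highest in the HOXA9 OFF 96 h library, as given above, and their part in the members' CPM was not tested. Scaling by TMM factors or by median-of-ratios factors raised the median of all genes by 0.25 and 0.20 at 48 h and by 0.38 and 0.44 at 96 h on the log2 scale. Relative to the median of all genes, the members' median was -0.66 at 48 h and -2.13 at 96 h with library totals, -0.67 and -2.34 with TMM, and -0.67 and -2.39 with median-of-ratios.

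**Figure D1:**
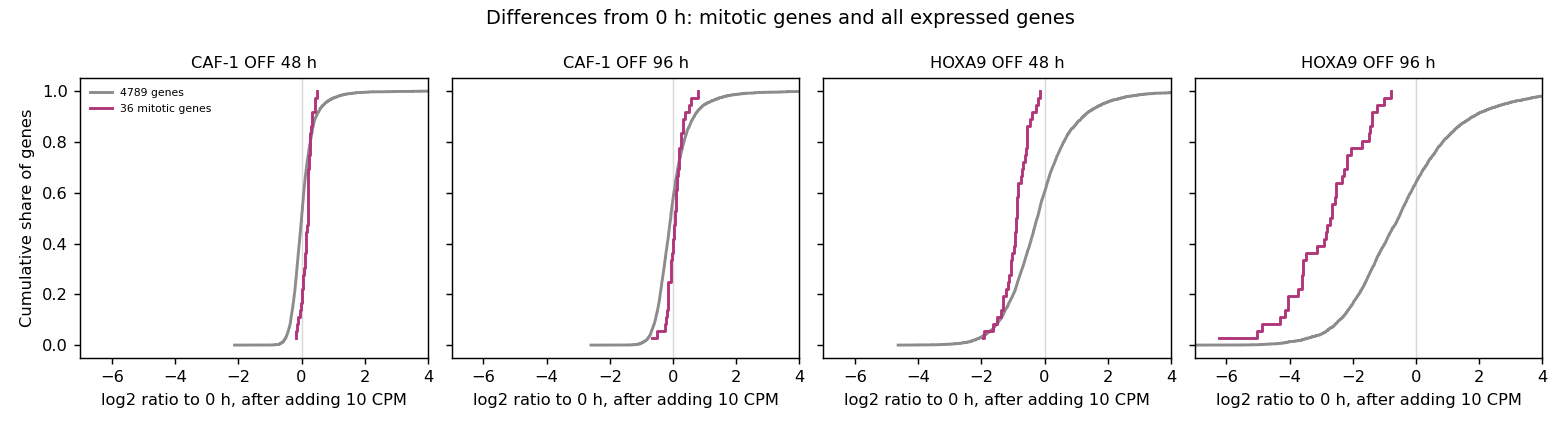
Cumulative share of genes (vertical axis) by their log2 ratio to the 0 h library of the same arm after adding 10 CPM (horizontal axis), for the 36 mitotic genes and the 4789 genes tested, 1 panel per treated library. The members' curve lies close to the curve of all genes in both CAF-1 OFF panels and lies wholly below 0 in both HOXA9 OFF panels, from -1.96 to -0.15 at 48 h and from -6.24 to -0.80 at 96 h.

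A few abundant members carry much of any such sum. The 5 with the most UMIs were Hmgb2, Stmn1, Tubb5, Cks2 and Cks1b, which held 57.4% of the members' UMIs in CAF-1 OFF 0 h and 57.5% in HOXA9 OFF 0 h. The other 31 summed to 3189.7, 3677 and 3502 CPM at 0, 48 and 96 h in the CAF-1 OFF arm, and to 3134, 1446 and 145 CPM in the HOXA9 OFF arm. Those 31 were thus above their 0 h sum at both times in the CAF-1 OFF arm and lower at each time in the HOXA9 OFF arm. In the HOXA9 OFF arm Hmgb2 alone went from 14.6% of the members' UMIs at 0 h to 58.5% at 96 h, and Hmgb2, Cks2, Tubb5 and Bub3 together from 37.5% to 52.9% and 93.4% (38.6%, 36.1% and 34.3% in the CAF-1 OFF arm). These 4 were picked after their values were seen.

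**Figure D2:**
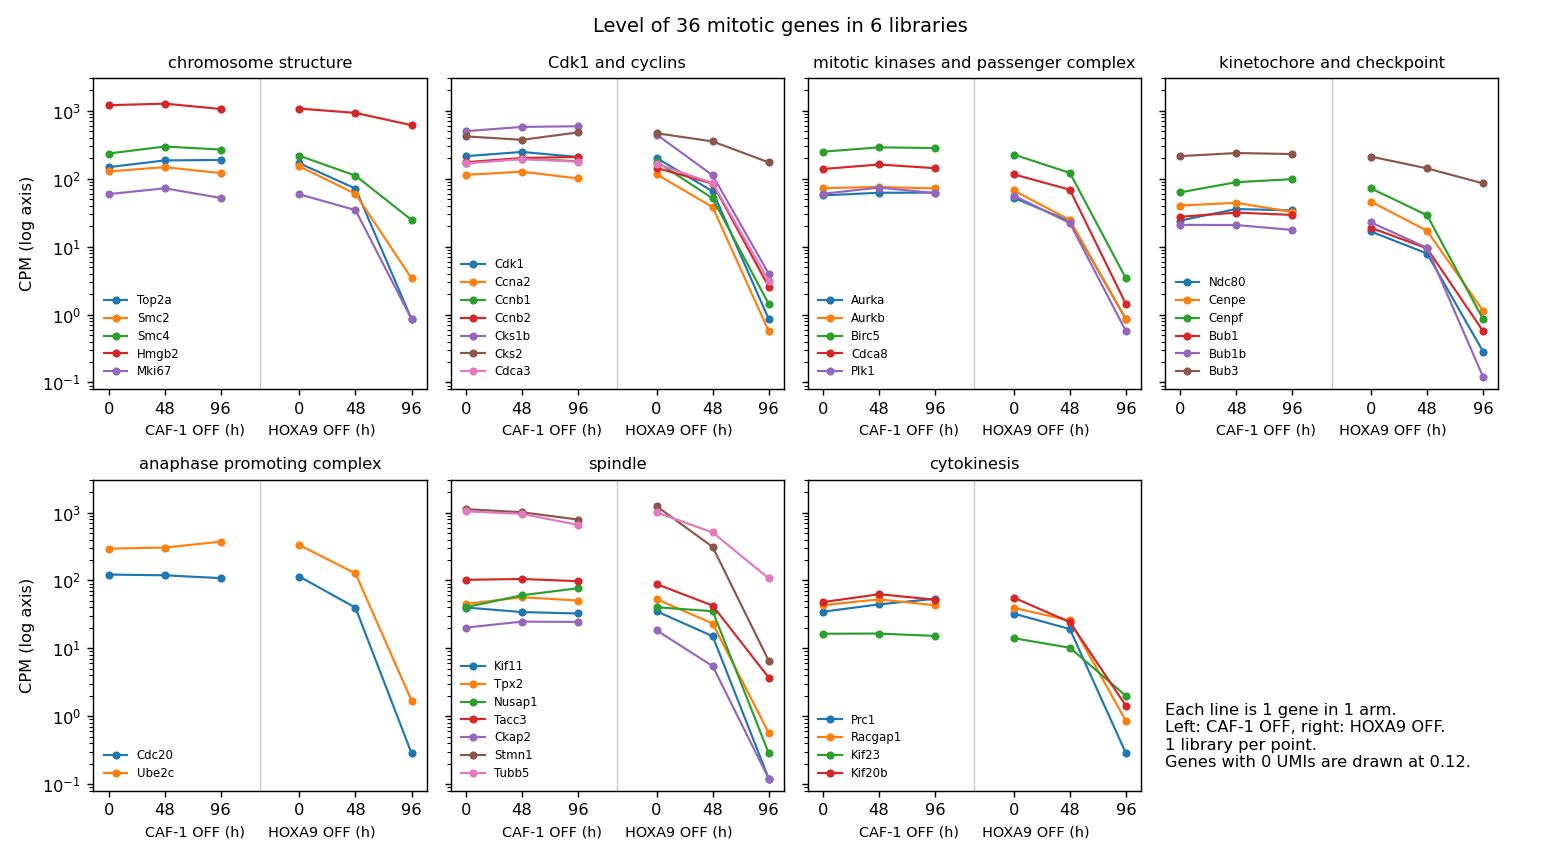
CPM of each of the 36 genes (log axis) against hours in the CAF-1 OFF arm (left of each panel) and the HOXA9 OFF arm (right), in 7 panels by role, with 1 library per point and genes with 0 UMIs drawn at 0.12. Lines are near level in the CAF-1 OFF arm and go down in the HOXA9 OFF arm, where Hmgb2 (615 CPM), Cks2 (174 CPM), Tubb5 (107 CPM) and Bub3 (85.4 CPM) end highest.

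Among the 5 genes of chromosome structure, Top2a, the topoisomerase that untangles sister chromatids, had 148, 186 and 189 CPM over the 3 times of the CAF-1 OFF arm and 169, 71.6 and 0.851 CPM over those of the HOXA9 OFF arm. All series of 3 values below are in that order (0, 48 and 96 h). Its last value is 3 UMIs, 198 times lower than at 0 h (67.6 to 965). The condensin subunits differed, since Smc2 was at 152, 59.9 and 3.4 CPM in the HOXA9 OFF arm, 44.6 times lower at 96 h (25.4 to 86.9), while Smc4 was at 218, 111 and 24.7 CPM, 8.83 times lower (7.08 to 11.1). Mki67, which coats mitotic chromosomes and is the usual marker of proliferation, was at 59.3, 72.3 and 52.1 CPM in the CAF-1 OFF arm and 58.9, 34.5 and 0.851 CPM in the other. Hmgb2, a DNA-bending chromatin protein abundant in dividing cells, was at 1209, 1276 and 1064 CPM and at 1079, 932 and 615 CPM, 1.76 times lower at 96 h (1.67 to 1.85). The group summed to 1779, 1979.8 and 1695 CPM in the CAF-1 OFF arm and to 1677, 1209 and 645 CPM in the HOXA9 OFF arm, and 4 of its 5 members were at least 2-fold lower at 96 h there.

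Cdk1, the kinase that drives entry into mitosis, was at 215, 248 and 209 CPM in the CAF-1 OFF arm. After HOXA9 inactivation it was at 202, 65.3 and 0.851 CPM, 3.1 times lower at 48 h (2.73 to 3.52) and 238 times lower at 96 h (81.1 to 1155). Its cyclins did not go in step at 48 h. Ccnb1 (cyclin B1) was at 179, 51.2 and 1.42 CPM, 3.5 times lower at 48 h (3.04 to 4.03), and Ccna2 (cyclin A2) was at 116, 38.2 and 0.567 CPM, 3.05 times lower (2.58 to 3.61). Ccnb2 (cyclin B2) was at 144, 84.7 and 2.55 CPM, 1.7 times lower (1.5 to 1.93), an interval that does not meet that of Ccnb1. By 96 h the ratios of Ccnb1 (126 times lower, 53.9 to 390.2) and Ccnb2 (56.4 times lower, 29.5 to 124) had overlapping intervals. After CAF-1 depletion Ccnb2 was at 175, 202 and 209 CPM, 1.19 times the 0 h level at 96 h (1.09 to 1.31), and Ccnb1 at 172, 196 and 181 CPM. Cdca3, an adaptor that helps degrade the mitosis inhibitor WEE1, was at 166, 86.1 and 3.12 CPM in the HOXA9 OFF arm.

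The small CDK-binding proteins Cks1b and Cks2, close paralogs, stood apart from each other after HOXA9 inactivation. Cks1b was at 448, 112 and 3.97 CPM in the HOXA9 OFF arm, 25% of its 0 h level at 48 h and 0.887% at 96 h. Cks2 was at 468, 354 and 174 CPM, 75.8% and 37.2% of its 0 h level, so that their start was alike and their 96 h ratios were 113 times (67 to 207) and 2.69 times lower (2.45 to 2.95). Both ended above 0 h in the CAF-1 OFF arm, Cks1b at 502, 579 and 593 CPM and Cks2 at 420.5, 374 and 481 CPM. How reads that match both paralogs were assigned was not tested.

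The mitotic kinases and the chromosomal passenger complex were nearly gone by 96 h of HOXA9 inactivation. Their 5 members summed to 519, 261 and 7.09 CPM, 73.1 times lower at 96 h (49.4 to 113), against 578, 664 and 623 CPM in the CAF-1 OFF arm. Birc5 (survivin, the passenger subunit that docks on centromeres) was at 227, 122 and 3.4 CPM, and Cdca8 (borealin) at 116, 68.9 and 1.42 CPM. Aurkb, the kinase of the complex, was at 67.1, 24.7 and 0.851 CPM, and Aurka, the spindle-pole kinase, at 52.3, 23.7 and 0.851 CPM. Plk1, which acts from entry to cytokinesis, was at 56.3, 22.2 and 0.567 CPM, 99.2 times lower at 96 h on 2 UMIs (27.2 to 824). With CAF-1 depleted, Aurka, Aurkb and Plk1 stayed between 56.9 and 75.7 CPM at all 3 times, and Birc5 was at 250.1, 289.8 and 283 CPM.

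The kinetochore and spindle checkpoint genes went down unevenly. Bub3, a checkpoint subunit that also works in interphase, was at 212, 142 and 85.4 CPM in the HOXA9 OFF arm, 2.48 times lower at 96 h (2.18 to 2.84). Its partner kinases were far lower, with Bub1 at 18.9, 9.42 and 0.567 CPM and Bub1b at 22.7, 9.6 and 0 CPM, at least 26.6-fold lower when 3 counts in the library are taken as the floor. Cenpf, a kinetochore protein made in G2, was at 72.1, 29 and 0.851 CPM, the motor Cenpe at 46.1, 17.1 and 1.13 CPM and the microtubule anchor Ndc80 at 16.7, 7.91 and 0.284 CPM. The direction in the CAF-1 OFF arm was the other way for Cenpf, at 62.9, 88.9 and 98.6 CPM (1.57 times at 96 h, 1.35 to 1.82). It was also the other way for Ndc80, at 24.2, 35.8 and 34.1 CPM (1.41 times, 1.1 to 1.81), but Ndc80 differed 1.45-fold between the untreated libraries. Cenpe was at 40.3, 44.2 and 32.4 CPM in the CAF-1 OFF arm, 0.804 times its 0 h level at 96 h (0.647 to 0.999). The group summed to 391, 460.1 and 443 CPM in the CAF-1 OFF arm and to 389, 215 and 88.2 CPM in the HOXA9 OFF arm.

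Cdc20 and Ube2c, the activator and the ubiquitin-conjugating enzyme of the anaphase-promoting complex, had the lowest sum relative to 0 h of the 7 groups at 96 h of HOXA9 inactivation. Together they were at 444, 166 and 1.99 CPM in the HOXA9 OFF arm, 224 times lower at 96 h (108 to 557), and at 417, 424 and 480.1 CPM in the CAF-1 OFF arm. Ube2c was at 331, 127 and 1.7 CPM, 194 times lower (89 to 530.0), and Cdc20 was at 114, 39.7 and 0.284 CPM, 401 times lower on 1 UMI (71.7 to 15879). After 96 h of CAF-1 depletion these partners stood on opposite sides of 0 h with library totals. Ube2c was at 294, 305 and 372 CPM, 1.26 times its 0 h level (1.18 to 1.36). Cdc20 was at 122, 119 and 108 CPM, 0.884 times (0.784 to 0.997). Both differences were smaller than the 1.46-fold difference of Bub1 between the untreated libraries, so differences of this size occurred without a treatment.

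The spindle group held the members that stood lowest, and the one that stood highest, relative to 0 h at 96 h of CAF-1 depletion. Tubb5, a tubulin subunit of microtubules in any phase, was at 1041, 954 and 658 CPM in the CAF-1 OFF arm, 0.632 times its 0 h level at 96 h (0.604 to 0.661). Stmn1 (stathmin), which takes microtubules apart, was at 1122, 1009 and 788 CPM, 0.702 times (0.674 to 0.732). In the same library Nusap1, which bundles spindle microtubules, was at its highest, at 40.3, 60.5 and 76.7 CPM, 1.9 times its 0 h level (1.59 to 2.29). The decrease of the group sum at 96 h, from 2410.0 to 1728 CPM, therefore came with Stmn1 and Tubb5 and not with Nusap1. After HOXA9 inactivation Stmn1 was at 1240.0, 311 and 6.53 CPM, 3.99 times lower at 48 h (3.78 to 4.22) and 190.0 times lower at 96 h (126 to 300.0), while Tubb5 was at 1005, 509 and 107 CPM, 9.42 times lower at 96 h (8.47 to 10.5). Nusap1 was at 40.3, 35.2 and 0.284 CPM there, 1.15 times lower at 48 h with an interval that includes 1 (0.925 to 1.42), and was the member with the most left at that time. Kif11, the motor that pushes spindle poles apart, was at 35.1, 15.1 and 0 CPM, at least 41.2-fold lower, and Ckap2 at 18.4, 5.46 and 0 CPM, at least 21.6-fold lower. Tpx2, which brings Aurora A to the spindle, was at 53, 23.2 and 0.567 CPM, and Tacc3, which ties microtubules together, at 88.3, 42.6 and 3.69 CPM. With CAF-1 depleted, Kif11 was at 39.9, 34.2 and 32.6 CPM, Tpx2 at 45.1, 56.5 and 50.6 CPM, Tacc3 at 102, 105 and 97.5 CPM and Ckap2 at 20.2, 24.7 and 24.5 CPM.

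None of the 4 cytokinesis genes was at least 2-fold lower at 48 h of HOXA9 inactivation, all 4 were at 96 h, and their sum was 142, 79.5 and 4.54 CPM. Prc1, the bundler of the central spindle, was at 32.5, 19.2 and 0.284 CPM, and Racgap1, its partner in setting the cleavage furrow, at 39.4, 25.8 and 0.851 CPM. The kinesin Kif23 was at 14.1, 10.2 and 1.99 CPM, 7.09 times lower at 96 h on 7 UMIs (3.23 to 18.4), and the kinesin Kif20b at 55.8, 24.3 and 1.42 CPM. Prc1 in the CAF-1 OFF arm was at 34.6, 44.4 and 53.6 CPM, 1.55 times its 0 h level at 96 h (1.26 to 1.9), Racgap1 at 43.2, 52.6 and 43 CPM, Kif20b at 47.9, 62.6 and 52.1 CPM and Kif23 at 16.4, 16.5 and 15.2 CPM.

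Read over all 36, the spread among members was small in the CAF-1 OFF arm and wide in the HOXA9 OFF arm. In the CAF-1 OFF arm the percent of the 0 h CPM ran from 85.7% to 149.9% (median 115%) at 48 h and from 63.2% (Tubb5) to 190.3% (Nusap1; median 106%) at 96 h. The ratio's interval lay above 1 for 21 members and below 1 for Cks2, Stmn1 and Tubb5 at 48 h. At 96 h it lay above 1 for 11 members (Top2a, Smc4, Ccnb2, Cks1b, Cks2, Birc5, Ndc80, Cenpf, Ube2c, Nusap1, Prc1) and below 1 for 5 (Hmgb2, Cenpe, Cdc20, Stmn1, Tubb5). Between the untreated libraries the same measure ran from 68.5% to 119%, but that range depends on which library is the divisor. The largest difference between them in either direction was 1.46-fold (Bub1), and Ndc80 differed 1.45-fold. Nusap1, Cenpf and Prc1 (higher) and Tubb5 (lower) lay past 1.46-fold at 96 h in the CAF-1 OFF arm. Ndc80, Top2a, Ube2c, Ckap2 and Ccnb2 were above 119% there but within 1.46-fold. After HOXA9 inactivation the percent left at 48 h ran from 25% (Cks1b) to 87.3% (Nusap1), with a median of 44.6%, and at 96 h from 0% to 57% (Hmgb2), with a median of 1.36%. At 96 h, 30 members were under 5 CPM, 24 were under 2% of their 0 h level, 3 had 0 UMIs and 15 had 1 to 3 UMIs, so the ratios of those 18 are known only within wide limits. More than 10% was left of 6 members, Hmgb2 (57%), Bub3 (40.3%), Cks2 (37.2%), Kif23 (14.1%), Smc4 (11.3%) and Tubb5 (10.6%).

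**Figure D3:**
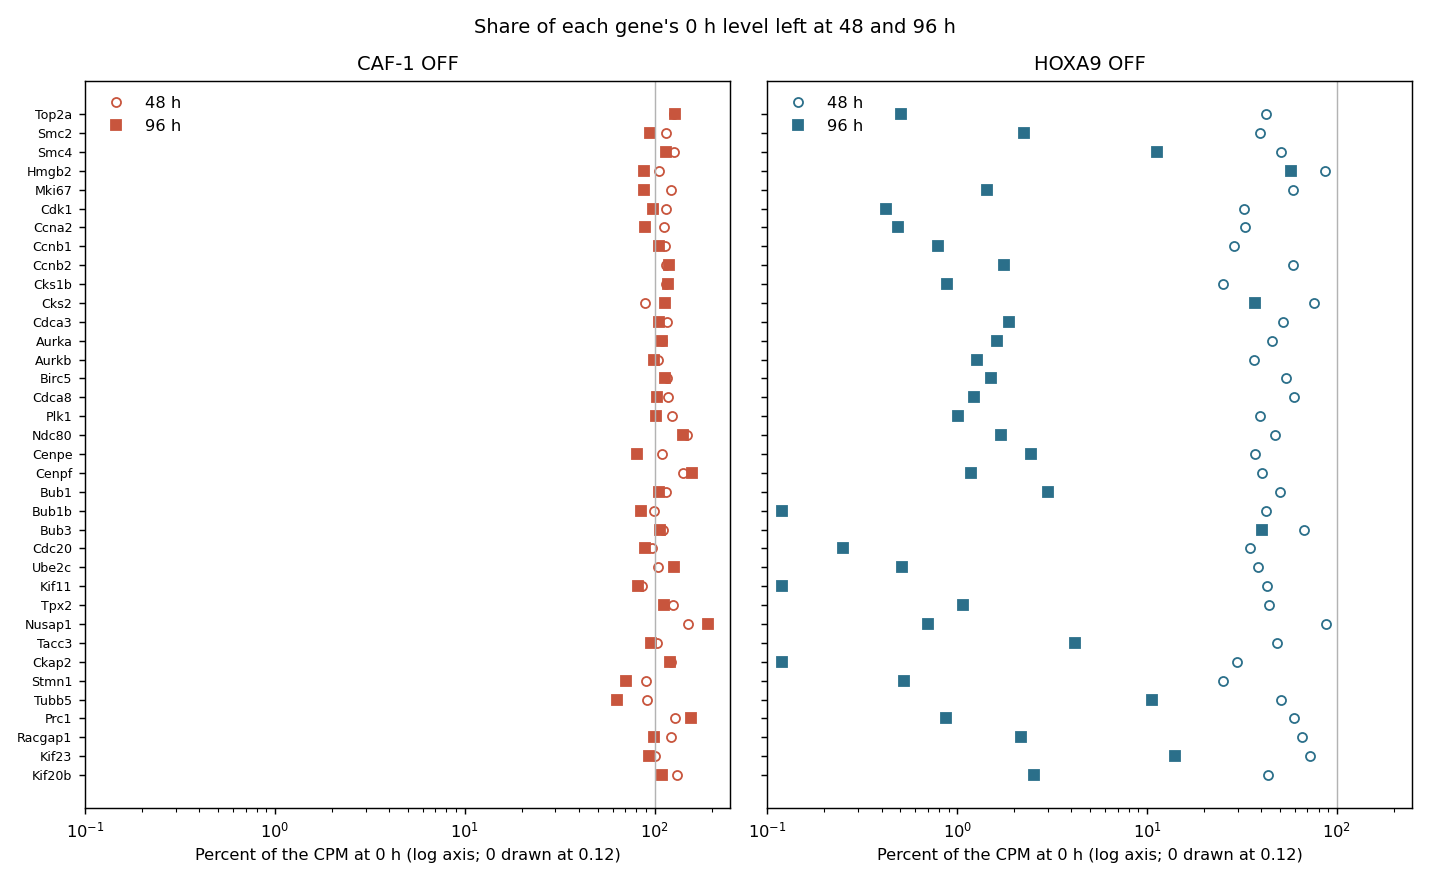
Percent of the 0 h CPM at 48 h and 96 h (log axis, 0 drawn at 0.12) for each of the 36 genes in the CAF-1 OFF arm (left) and the HOXA9 OFF arm (right), 1 library per point. CAF-1 OFF points lie between 63.2% and 190.3%, HOXA9 OFF points at 48 h between 25% and 87.3%, and those at 96 h reach from 0% to 57%.

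A sum over a library does not tell fewer cells with mitotic RNA from less of it in each cell, so the members were also counted cell by cell. Per cell, the members gave 48.7, 47.4 and 42 UMIs on average in the CAF-1 OFF arm and 65.3, 13.9 and 2.45 UMIs in the HOXA9 OFF arm, where total UMIs per cell were also lower at 48 and 96 h. The CAF-1 OFF means were 0.973 and 0.861 times that at 0 h, but 1.3 and 1.22 times when barcodes with a high mitochondrial share were kept, so their direction was not set. On this scale the HOXA9 OFF 96 h mean was 26.6 times below 0 h (25.7 to 27.6), more than the 7.02 times on CPM. Cells were therefore also thinned to 1300 UMIs each, which left out 1 to 134 shallower cells per library. At that equal depth a cell held 9.14, 9.68 and 8.42 member UMIs on average in the CAF-1 OFF arm and 8.92, 3.92 and 1.34 in the HOXA9 OFF arm. The median cell held 8, 9 and 8 against 8, 2 and 1.

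Cells with at least 3 member UMIs at 1300 UMIs made up 93.4%, 93.9% and 84.3% of the CAF-1 OFF libraries and 90.9%, 40.2% and 15.1% of the HOXA9 OFF libraries (unthinned 99.1%, 99.1% and 98.5%, and 99.4%, 76.1% and 38.1%). Because Hmgb2, Tubb5, Cks2, Cks1b and Stmn1 give most of these UMIs, cells with UMIs of at least 5 different genes among the other 31 were also counted. They made up 26.4% (23 to 30), 35.4% and 32.4% of the CAF-1 OFF cells and 28.4% (24.4 to 32.7) and 10.2% (8.63 to 11.9) of the HOXA9 OFF cells at 0 and 48 h, and 0 of 1376 at 96 h, which allows a share of up to 0.218% when a count of 0 is read as up to 3 cells, or 0.268% by the exact limit. At 2600 UMIs the same shares were 56.2%, 67.6% and 55.9%, and 54.6%, 18.1% and 0.469%, and without thinning they were 81.1%, 85.9% and 72.6%, and 84.4%, 18.5% and 0.199%. The share at CAF-1 OFF 96 h was thus above 0 h at 1300 UMIs but not at 2600 UMIs or without thinning, while that at HOXA9 OFF 48 h was below 0 h in each. Without thinning, 3 of 1510 cells (0.199%) of the HOXA9 OFF 96 h library had at least 5 different ones, and those 3 held 17.1% of all its UMIs of the 31 genes. The largest number of member UMIs in a cell of that library was 139.

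**Figure D4:**
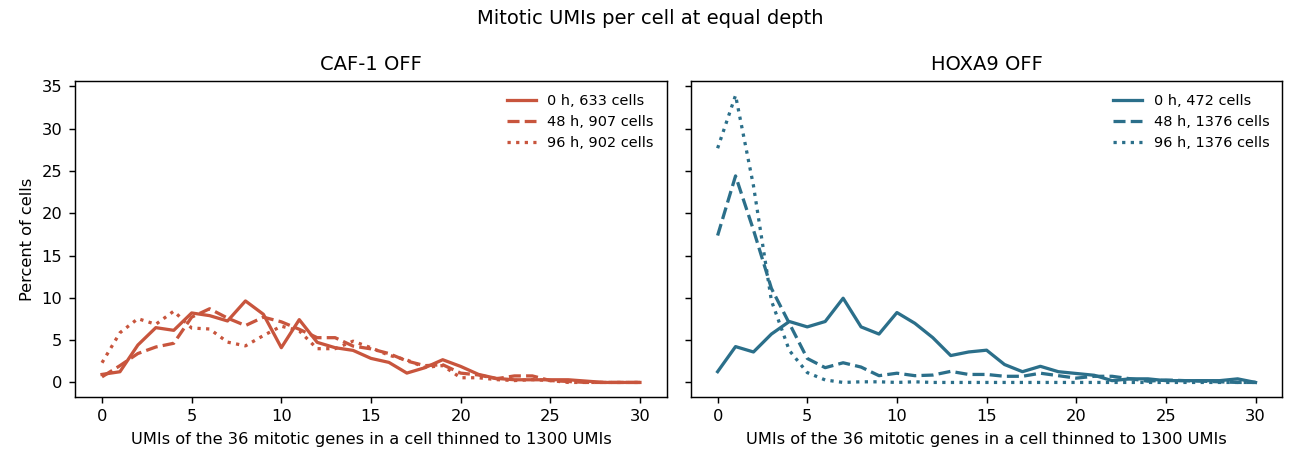
Percent of cells (vertical axis) with each number of UMIs of the 36 mitotic genes in a cell thinned to 1300 UMIs (horizontal axis), 1 line per library, CAF-1 OFF left and HOXA9 OFF right. The CAF-1 OFF lines lie close together with medians of 8, 9 and 8 UMIs, and the HOXA9 OFF lines shift to the left with time, with medians of 8, 2 and 1.

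The cells in which a gene was seen were counted at 1300 UMIs as well. Stmn1 had a UMI in 72.5%, 70.1% and 53.2% of CAF-1 OFF cells and in 78.2%, 18.2% and 0.363% of HOXA9 OFF cells. Cks1b was seen in 36.2%, 9.01% and 0.218% of HOXA9 OFF cells, and Cks2 in 42.4%, 28.2% and 19%. Hmgb2 was seen in 66.1%, 49.9% and 54.2% of HOXA9 OFF cells, so that its share did not go down between 48 h and 96 h. No cell type in these libraries is sure to lack the members, so free RNA has no direct measure here. In the HOXA9 OFF 96 h library, with a median of 2043.5 UMIs per cell before thinning, the 0.363% of Stmn1 stands beside the 54.2% of Hmgb2.

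At 48 h of HOXA9 inactivation mitotic RNA was spread less evenly over the cells than at 0 h. The 10% of cells with the most member UMIs held 22.3% of them at 0 h, 45.9% (44.5 to 47.2) at 48 h and 28.7% at 96 h at equal depth, and the cells with at least 5 different genes of the 31, 10.2% of the library, held 62.7% of the UMIs of the 31. In the CAF-1 OFF arm the top 10% held 21.8%, 20.5% and 22%. A low mean per cell by itself raises such a share, and its part in the value at 48 h was not tested.

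To see which members went together in those cells, the 10% of cells with the most UMIs of the other 35 members were taken for each gene at 2600 UMIs per cell, and the gene's mean there was divided by its mean in the rest. Over members with at least 30 UMIs the median ratio was 2.39 (34 genes), 1.88 (36) and 2.26 (36) in the CAF-1 OFF arm, and 2.48 (31), 9.04 (31) and 0.855 (5) in the HOXA9 OFF arm. At 48 h of HOXA9 inactivation the top 10% were 111 of 1114 cells, and all 31 ratios were above 3, from 3.27 (Cks2) to 27.6 (Nusap1, 16 to 50). Among the others were Prc1 at 23.6, Top2a at 15.6, Cdk1 at 15.2, Ccnb1 at 14.6, Plk1 at 14.2 and Ube2c at 13.1. Stmn1 (5.9), Cks1b (4.7), Hmgb2 (4.38), Tubb5 (3.34) and Bub3 (3.31) had lower ratios. At 0 h Prc1 already had a ratio of 7.6, against 1.2 for Stmn1 and 1.42 for Cks1b. At 96 h of HOXA9 inactivation 426 of 1510 cells reached 2600 UMIs, so the values there describe the deepest cells of the library. In them the 5 genes with enough UMIs had ratios of 0.575 (Bub3, 0.206 to 1.3) to 1 (Hmgb2, 0.755 to 1.31). Cks2 was at 0.618 (0.313 to 1.11), Tubb5 at 0.855 (0.43 to 1.55) and Smc4 at 0.891 (0.174 to 2.86). All 5 intervals include 1, and the top 10% were 43 cells. These ratios therefore cannot tell whether the 5 genes were more or less frequent in cells with more of the other members. In CAF-1 OFF 96 h Nusap1 stood at 4.32 and Stmn1 at 0.797 (0.665 to 0.95). These ratios describe cells of 1 library each and share its depth.

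**Figure D5:**
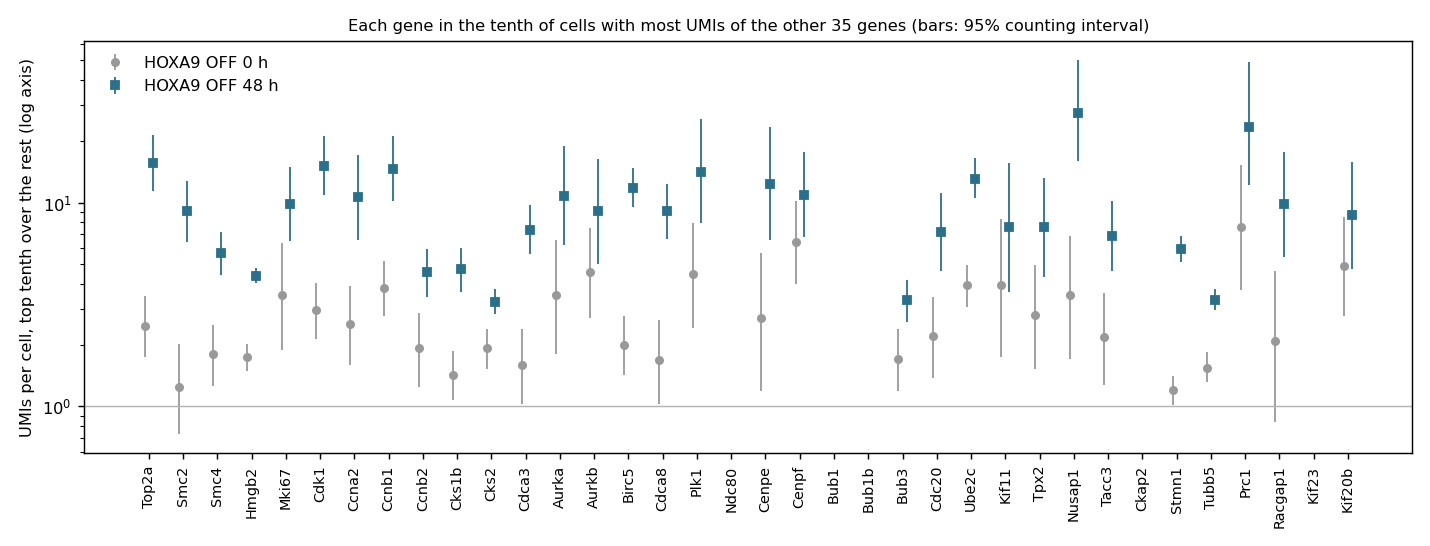
For each gene (horizontal axis), mean UMIs per cell in the 10% of cells with the most UMIs of the other 35 genes divided by the mean in the other cells (log axis), at 2600 UMIs per cell in the HOXA9 OFF 0 h (grey) and 48 h (blue) libraries, with 95% counting intervals; genes with under 30 UMIs have no point. Ratios at HOXA9 OFF 48 h run from 3.27 (Cks2) to 27.6 (Nusap1), above the median of 2.48 at HOXA9 OFF 0 h.

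Cells of a library were also divided by a differentiation gene, with member UMIs counted at 1300 UMIs per cell. At 48 h of HOXA9 inactivation the 287 cells with a UMI of Elane, an enzyme of early granules, held 6.75 member UMIs on average (6.46 to 7.06), against 3.17 (3.06 to 3.28) in cells without. In the same library the 271 cells with at least 5 UMIs of Prg2, an eosinophil granule protein, held 1.83 (1.67 to 2), against 4.45 in cells with none. Cells with Cpa3, a mast cell protease, held 2.36 against 4.15, and cells with Ltf, a protein of later neutrophil granules, 3.05 against 3.99. Cells with S100a8, a neutrophil protein, held 4.73 against 3.08. Mitotic RNA at 48 h was thus higher in cells with Elane or S100a8 and lower in cells with Cpa3, Ltf or at least 5 Prg2 UMIs.

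The same division was made after CAF-1 depletion. At 96 h the 740 cells with a UMI of Pf4, a megakaryocyte gene, held 8.6 member UMIs on average, against 7.57 in cells without, and cells with Cpa3 held 8.57 against 7.55. Cells with Elane held 8.58 against 8.17, but those with at least 5 Elane UMIs held 7.96 (7.44 to 8.5). The 34 cells with at least 5 Prg2 UMIs held 5.29 (4.55 to 6.13), and cells with no Prg2 held 8.61. With a cutoff of 1 or more Prg2 UMIs, cells held 6.2 at 96 h against 8.61 without, and the 33 such cells at 48 h held 10.6 (9.5 to 11.7) against 9.65. In the HOXA9 OFF arm cells with 1 or more held 5.12 against 9.12 at 0 h, 3.47 against 4.45 at 48 h and 1.38 against 1.33 at 96 h. Cells with at least 5 held 1.22 (0.978 to 1.49) at 96 h there. With the cutoff of 1, Prg2 cells were thus lower in some of the libraries and not in others. At 48 h of CAF-1 depletion cells with Pf4 held 9.61 against 9.72 in cells without, and cells with at least 5 Elane UMIs 8.55 against 9.73 in cells with none. Cells with Pf4 or Cpa3 thus held no fewer mitotic UMIs than cells without at 96 h.

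Other mitotic genes were counted in the same way. Of 74 further genes of mitosis, 0 were at least 2-fold lower and 1 higher at 48 h and again at 96 h in the CAF-1 OFF arm, and in the HOXA9 OFF arm 15 were lower and 0 higher at 48 h, and 53 lower and 1 higher at 96 h. The share lower after HOXA9 inactivation was 20.3% at 48 h, near the 19.6% of all genes tested. At 96 h it was 71.6%, beside 39.8% of all genes. The list of 74 had no minimum level, while all genes tested did. The added CPM draws the ratios of low genes towards 0, so the shares lower cannot be compared directly. With library totals, all 74 lay below 0 h at 48 h and 73 at 96 h in the HOXA9 OFF arm. Their sum was 2.23 and 5.53 times lower at these times. The 1.35% higher after CAF-1 depletion stood beside 2.76% of all genes at 48 h and 5.22% at 96 h. Median log2 ratios of the 74 were 0.07, 0.01, -0.69 and -1.46, beside 0.00, -0.08, -0.23 and -0.56 over all genes tested. Ncapd3, a subunit of the second condensin complex, was the one higher after CAF-1 depletion, at 23.3, 89.8 and 111 CPM (4.76 times at 96 h, 3.84 to 5.95) and at 23.1, 15.6 and 2.27 CPM in the HOXA9 OFF arm. Pttg1 (securin, the anaphase inhibitor) was the one higher after HOXA9 inactivation, at 32.2, 31.3 and 88.2 CPM. The centromeric histone Cenpa was at 393, 515 and 547 CPM in the CAF-1 OFF arm and 384, 239 and 28.1 CPM in the HOXA9 OFF arm. The alpha tubulin Tuba1b was lower in both, at 1058, 799.7 and 538 CPM and at 978, 274 and 47.4 CPM, beside its partner Tubb5.

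Genes of DNA synthesis stood lower than the mitotic ones after CAF-1 depletion, a difference that was not tested. Of 35 S phase genes none was 2-fold lower or higher in that arm, but 32 of 35 lay below 0 h at 96 h, with a median log2 ratio of -0.36, where the 36 mitotic genes had 0.07. The S phase list summed to 4525, 4400.0 and 3641 CPM. Mcm6, of the replicative helicase, was at 123, 98 and 65.4 CPM, Tyms (thymidylate synthase) at 349, 288 and 194 CPM, and Rrm2, of ribonucleotide reductase, at 283, 409 and 359 CPM, opposite to the others. After HOXA9 inactivation 24 of 35 (68.6%, beside 19.6% of all genes tested) were at least 2-fold lower at 48 h and 35 (100%, beside 39.8%) at 96 h, and the sum was 4123, 1447 and 279 CPM. The median log2 ratio at 48 h was -1.36, below the -0.89 of the mitotic genes, and this difference too was not tested. Dut, which clears dUTP, was at 474, 90.8 and 1.99 CPM.

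Of 18 transcription factors and cofactors known to act on cell cycle genes, none was past 2-fold in the CAF-1 OFF arm. In the HOXA9 OFF arm 2 were lower at 48 h (Mybl2 and E2f4) and 4 lower (with Rbbp4 and Nfyb) and 1 higher (E2f2) at 96 h. These are 11.1% and 22.2% lower, below the 19.6% and 39.8% of all genes tested, and 5.56% higher, below 18.1% of all genes. As with the further mitotic genes, this list had no minimum level, so its shares cannot be compared directly with those of all genes. Mybl2 (B-MYB) was at 25.6, 28.6 and 19.5 CPM and at 21, 3.95 and 0.284 CPM, and Foxm1 at 8.3, 6.62 and 7.42 CPM and at 8.59, 4.14 and 0.284 CPM. E2f2 was at 3.58, 7.91 and 23 CPM in the HOXA9 OFF arm, and Fzr1 (CDH1, the activator of the anaphase-promoting complex in G1) at 29.4, 27.1 and 26.1 CPM, near level.

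Of 19 genes of G1 control and CDK inhibition, 2 were at least 2-fold higher at 48 h (Cdkn2c and Gadd45a) and 3 at 96 h (with Cdkn2d) in the CAF-1 OFF arm (10.5% and 15.8%, beside 2.76% and 5.22% of all genes tested), and none was lower. Cdkn2c (p18, an inhibitor of CDK4 and CDK6) was at 20.2, 67.1 and 79.5 CPM there, and at 21.5, 23.2 and 22.7 CPM in the HOXA9 OFF arm. Gadd45a, a stress gene that can block G2, was higher in both arms, at 19.2, 58.9 and 105 CPM and at 23.4, 64 and 182 CPM, and so was Cdkn2d (p19) at 69, 109.8 and 152 CPM and at 50.8, 139 and 190.1 CPM. Among the same 19 after HOXA9 inactivation, 3 were lower and 4 higher at 48 h, and 4 lower and 5 higher at 96 h. The shares lower were 15.8% and 21.1%, beside 19.6% and 39.8% of all genes, and the shares higher 21.1% and 26.3%, beside 13% and 18.1% of all genes. This list too had no minimum level, so its shares lower carry the same limit. The lower ones were Ccnd2 (198, 20.9 and 17 CPM), Cdk4 (597, 114 and 18.7 CPM), Cdk6 (328, 60.1 and 19.6 CPM) and, at 96 h, Rbl1. Btg1, an antiproliferative gene, was at 42, 379.6 and 723 CPM, Ccnd3 at 82.8, 303 and 290.0 CPM and Cdkn1b (p27) at 3.34, 8.47 and 26.1 CPM. Cdkn1a (p21) was at 10.9, 25.9 and 28.9 CPM in the CAF-1 OFF arm and at 14.1, 2.45 and 6.24 CPM in the HOXA9 OFF arm.

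The other CAF-1 subunits were followed too, as Chaf1a and Chaf1b are themselves made mostly in dividing cells. Chaf1a was at 32.7, 29 and 23 CPM in the CAF-1 OFF arm and at 32.2, 12.8 and 0 CPM in the HOXA9 OFF arm, and Rbbp4 at 186, 176 and 139 CPM and at 162, 82.3 and 52.2 CPM. Chaf1b was thus lower in both arms, and at 96 h of HOXA9 inactivation all 3 subunit genes were at least 2-fold lower, while in the CAF-1 OFF arm no mitotic member was.

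The genes with the profile most like that of the summed members, by the root mean square difference of centred log2(CPM + 10) over the 6 libraries, were Lsm5 (0.039), H2afz (0.044), Mrpl28 (0.048), Psmd14 (0.061), Mrpl16 (0.062), Kif22 (0.069), Ppil1 (0.070), Med9 (0.071), Hmmr (0.074) and Tmem147 (0.085). Kif22 and Hmmr are mitotic genes of the list of 74. H2afz, a histone variant, was at 4180.3, 4611 and 4156 CPM in the CAF-1 OFF arm and at 4338, 2091 and 787 CPM in the HOXA9 OFF arm. The others include genes of RNA processing, mitochondrial ribosomes and the proteasome. The profile of the sum follows its abundant members, as Hmgb2 gave 58.5% of the members' UMIs at HOXA9 OFF 96 h. After 10 CPM is added, Lsm5, at 251 CPM at 0 h and 41.1 CPM at 96 h in the HOXA9 OFF arm, ranks near Kif22. Kif22 was at 48 and 0.284 CPM at the same times. The ranking therefore describes the sum and cannot tell whether the typical member has a profile of its own.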

How the data were processed

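Live cells were sorted and libraries prepared with 10x Chromium (v2), which reads transcript 3′ ends. The deposited table holds the authors' raw counts (UMIs per gene and cell; all values whole and none below 0), made against mm10 with Cell Ranger 3.0.1 according to the submitters' processing notes, which also name Seurat 3.0.1 and Scanpy 1.4.6. Of 7821 barcodes, the 5872 with at least 200 and at most 6000 genes and at most 10% mitochondrial UMIs were kept, as the study's methods state. No doublet caller was run. 

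Counts were summed per library and divided by its total UMIs (CPM). Differences were called at 2-fold of CPM + 10, with genes of a mean of at least 20 CPM as background (4789 genes; 31 members pass, and Ndc80, Bub1, Bub1b, Ckap2 and Kif23 do not but were kept). With 1 library per group no test was made. Intervals are exact 95% (Poisson for CPM and mean UMIs per cell, Clopper-Pearson binomial for ratios and shares). For equal depth, cells were thinned at random to 1300 UMIs (1000 and 2600 as alternatives). Computing used Python 3.11.15 (numpy 2.4.6, scipy 1.17.1, pandas 2.3.3, matplotlib 3.10.9) and, for TMM factors, R 4.3.3 with edgeR 4.0.16. The code was tested on simulated data. The members and lists were chosen with earlier results of these data known. All 36 members are named, along with genes of the regulator, G1 and CAF-1 lists, the mitotic and S phase genes of at least 50 CPM with the largest differences, and the 10 nearest profiles. The effects of other filters, scalings, pseudocounts and thresholds are given at the end.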

Additional observations from a re-analysis of the deposited data

Results flagged for a closer look

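For 8 members the interval of the ratio to 0 h lay above 1 at both times in the CAF-1 OFF arm and below 1 at both times in the HOXA9 OFF arm, and the difference between the arms was not tested. Their CPM at 96 h in the CAF-1 OFF arm, as a percent of 0 h, was 128 for Top2a, 115 for Smc4, 119 for Ccnb2, 118 for Cks1b, 113 for Birc5, 141 for Ndc80, 157 for Cenpf and 155 for Prc1. Of these, only Cenpf and Prc1 lay past 1.46-fold at 96 h, the largest difference of a member between the untreated libraries (Bub1). Between those libraries the interval also lay clear of 1 for 13 members.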

How the results depend on the processing

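Over 36 results and 170 alternative values, 92 were labelled the same, 73 moved and 5 turned in direction. Same meant within the counting interval of the main value or within 1.5 times a count of members. For a median log2 ratio it meant within an interval from the spread among the members, which is not counting error. The counts of members set beside a background with no minimum are among the 92 and could not move, since the background does not enter them. The cause of a move was not tested unless named. The summed CPM relative to 0 h was 1.05, 0.947, 0.497 and 0.142 (CAF-1 OFF 48 and 96 h, then HOXA9 OFF 48 and 96 h). It was 1.08, 0.987, 0.556 and 0.162 without the mitochondrial filter, 1.01, 0.964, 0.586 and 0.211 with median-of-ratios factors, and 1.15, 1.1, 0.461 and 0.0462 without the 5 most abundant members, which turned the second value. TMM factors gave 1 for CAF-1 OFF 96 h, also counted as turned, and 0.613 and 0.2 for HOXA9 OFF. The mean of each cell's own CPM gave 0.923 for CAF-1 OFF 96 h, and 0.428 and 0.148 for HOXA9 OFF. Totals without mitochondrial and ribosomal protein genes gave 1.03 for CAF-1 OFF 48 h and 0.108 for HOXA9 OFF 96 h, and leaving out the 5% of cells with most UMIs gave 0.44 for HOXA9 OFF 48 h. UMIs per cell relative to 0 h were 0.973, 0.861, 0.212 and 0.0375, and without the mitochondrial filter 1.3 and 1.22 (both turned), 0.528 and 0.104. Without the 5% of cells with most UMIs they were 0.989, 0.879 and 0.184 for the first 3. At 1300 UMIs per cell the ratios were 1.06, 0.92, 0.439 and 0.15, at 2600 UMIs 0.479 for HOXA9 OFF 48 h, and unthinned 0.973 (turned), 0.861, 0.212 and 0.0375.

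The median log2 ratio of HOXA9 OFF was -1.13 at 48 h and -5.06 at 96 h with 1 CPM added, and -0.52 and -1.21 with 50 CPM added. At 48 h it was -0.65 with TMM and -0.70 with median-of-ratios factors. The 13 members at least 2-fold lower at HOXA9 OFF 48 h became 20 with 1 CPM added, 5 with 50 CPM, 7 with either scaling, 27 at 1.5-fold and 0 at 4-fold. At CAF-1 OFF 96 h, 1.5-fold called 1 lower and 1 higher in place of 0. With the 0 h library of the other arm as the start, an alternative chosen after seeing the data, CAF-1 OFF 48 h had a summed ratio of 1.07 and a median of 0.22.

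Cells with at least 3 member UMIs were 87.9%, 89.7% and 77.5% (CAF-1 OFF) and 83.5%, 31% and 8.89% (HOXA9 OFF) at 1000 UMIs per cell, 99%, 98.9%, 96.4%, 98.1%, 70.5% and 42.7% at 2600 (which 426 of 1510 cells of the last library reach), and 99.1%, 99.1%, 98.5%, 99.4%, 76.1% and 38.1% unthinned. More UMIs per cell raise this share by construction. The 10% of cells with the most member UMIs held 19.6%, 18.7% and 20.7% (CAF-1 OFF) and 41.3% and 26.1% (HOXA9 OFF 48 and 96 h) at 2600 UMIs, and 24.7%, 22.4%, 23.3%, 24.9%, 54.3% and 31.1% unthinned.

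No paired analysis was possible because each group is 1 library and no test was made, and leaving out a replicate was not possible for the same reason. Depth limits the HOXA9 OFF 96 h library most, where 18 members had 0 to 3 UMIs. Scaling turned the direction of at most 4 of the 36 members in any CAF-1 OFF library.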

Other observations

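The members were also present in the barcodes that the filter removed. Per 1000000 UMIs that are not mitochondrial, the members were at 7111, 7143 and 7836 in the removed barcodes of the CAF-1 OFF libraries at 0, 48 and 96 h, beside 7895, 8327 and 7524 in the kept cells. In the HOXA9 OFF arm they were at 6561, 3320.2 and 1254 in the removed barcodes, beside 7781, 3852 and 1075 in the kept cells. The last of these rests on 3 barcodes with 5 member UMIs.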
